A study of Mus musculus with 8 samples.

Results

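The genes described here are 42 members of the oxidative stress defence, chosen by gene symbol and all found among the 45777 genes of an expression table of mouse neural stem cells. The list holds the transcription factor NRF2 (Nfe2l2), its repressor KEAP1 and the enzymes and binding proteins that remove reactive oxygen species, rebuild glutathione and thioredoxin, supply NADPH, conjugate electrophiles and store iron and other metals. All 42 passed the filter on low counts, as did 17644 genes in all. The samples are labelled as neural stem cells of the subventricular zone, a stem cell niche of the adult brain, from S1PR1-deficient mice with a deletion of S1pr1, the gene of a receptor for sphingosine-1-phosphate, and from control mice of genotype WT. Each genotype was treated with high-density lipoprotein labelled plus or minus for apolipoprotein M, the carrier of sphingosine-1-phosphate on that particle. Each of the 4 groups has 2 samples, and the labels used here state neither the driver of the deletion, nor the age of the mice, nor whether the 2 samples came from separate cultures or animals. The p-values therefore measure only the spread between these libraries, which may be technical.

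The table names its libraries GH1, GH2, GV1, GV2, CH1, CH2, CV1 and CV2, codes that no sample label holds. C is read as control because it begins those titles, and G as S1PR1-deficient only by elimination. H and V are not tied to either lipoprotein preparation, so no result here speaks of the effect of apolipoprotein M. The level of S1pr1 was given as a check on the reading of C and G. In CPM, read counts scaled to a common library size with TMM factors, S1pr1 stood at 23.2 and 21.2 CPM in GH and 22.2 and 22.4 CPM in GV libraries, against 25.4 and 23.2 CPM in CH and 20.7 and 16.0 CPM in CV libraries. The G and C libraries overlapped, and the log2 fold change of G against C was 0.08 ± 0.08 (SE), with an adjusted p of 0.569. Between the second letters, S1pr1 was higher in CH than in CV by 0.40 ± 0.12 on the log2 scale (adjusted p = 0.0433), lost without CH1, CH2, CV2, GH1 or GH2 (adjusted p up to 0.304). For GV against CV its log2 fold change was 0.28 ± 0.12 (adjusted p = 0.0948), and for GH against CH it was -0.13 ± 0.11 (adjusted p = 0.71). S1pr1 was thus not called lower in G than in C, and this check does not bear the reading out. The count of a whole gene does not show which part of it was deleted, so the reading stays unsettled. The libraries are therefore called by their codes throughout, and every direction below is one between codes, not between known genotypes.

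The libraries held 39619305 to 45698186 counted reads. Across genes, 7 of the 8 libraries correlated best with the other library of their code, and GV2 correlated slightly better with a GH library (0.99547) than with GV1 (0.99518). Stem cell genes were high, with Nes at 631 to 833 CPM, Slc1a3 at 924 to 1083 CPM and Fabp7 at 1252.5 to 2021 CPM, but Gfap, which marks the astrocyte-like stem cells of this zone, stayed at or under 0.852 CPM. Of 5 markers of neurons or neuroblasts, only Map2 was also high, at 1048 to 1369 CPM. Tubb3 stood at 10.7 to 16.7 CPM, Syp at 4.33 to 8.45 CPM and Rbfox3 at 1.78 to 4.37 CPM. The neuroblast gene Dcx stood at 0.400 to 1.21 CPM. Of 6 microglial markers, 4 had no read in any library, and the summed level of all 6 was at most 0.0771 CPM. The summed level of 12 stem cell markers was 5513 to 5918 CPM in G libraries and 6271 to 6342 CPM in C libraries, so the groups did not overlap. The mean of 9 of the 12 was lower in G, while that of Slc1a3, Sox2 and Pax6 was higher. The summed level of 5 mural and fibroblast markers, most of it Acta2, was 0.851 to 1.41 CPM in G libraries and 1.77 to 8.43 CPM in C libraries. The part of these marker differences in the results on G against C below was not tested. In bulk RNA, fewer cells of a type and less RNA per cell cannot be told apart.

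As background, KEAP1 holds NRF2 in the cytoplasm and hands it to a ubiquitin ligase for destruction. Oxidants and electrophiles modify KEAP1, and NRF2 then accumulates, pairs with small MAF proteins and binds antioxidant response elements near genes such as Nqo1, Gclm, Txnrd1 and Srxn1. In neural stem cells, the redox state of the cell is known to influence proliferation and differentiation.

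The core of the antioxidant response element, TGACNNNGC, was sought on both strands in the RefSeq promoters of the table's build (GRCm38.p6), from 250 bases before to 50 bases after each gene's start. A promoter was present for 36 of the 42 members, and 12 of these, or 33.3%, held the core, against 14.0% of the 27025 genes with a promoter. The 6 members without an entry were Hmox1, Gclc, Gsr, Sod3, Prdx6 and Gsta4. Of the 12 members with the core, 3 changed in some comparison (Sod1, Prdx1 and Mt2), as did 17 of the 24 whose promoter lacked it. The share of all genes that changed in some comparison, with or without the core, is not given here. These counts are therefore not read as a result on the core. The 5 promoters printed here are those of Sod1, Prdx1 and Mt2 and of a pair of textbook NRF2 targets that did not change (Gclm and Txnrd1). Capitals mark the match. In Mt2 the core reads as printed. In Sod1, Prdx1, Gclm and Txnrd1 it lies on the opposite strand, so the capitals show its reverse complement.
Sod1 (chr16:90220512-90220811, plus strand): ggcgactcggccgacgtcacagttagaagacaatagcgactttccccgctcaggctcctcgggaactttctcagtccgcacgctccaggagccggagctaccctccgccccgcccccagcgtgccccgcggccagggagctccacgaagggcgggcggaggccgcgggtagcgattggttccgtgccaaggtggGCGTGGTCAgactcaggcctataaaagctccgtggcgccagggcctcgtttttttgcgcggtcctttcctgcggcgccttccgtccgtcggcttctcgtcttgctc
Prdx1 (chr4:116685349-116685648, plus strand): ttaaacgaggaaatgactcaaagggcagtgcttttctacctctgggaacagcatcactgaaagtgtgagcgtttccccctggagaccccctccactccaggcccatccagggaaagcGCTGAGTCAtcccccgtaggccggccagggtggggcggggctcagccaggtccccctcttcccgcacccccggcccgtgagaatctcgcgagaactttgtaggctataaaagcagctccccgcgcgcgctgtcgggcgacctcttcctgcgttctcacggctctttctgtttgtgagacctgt
Mt2 (chr8:94172368-94172667, plus strand): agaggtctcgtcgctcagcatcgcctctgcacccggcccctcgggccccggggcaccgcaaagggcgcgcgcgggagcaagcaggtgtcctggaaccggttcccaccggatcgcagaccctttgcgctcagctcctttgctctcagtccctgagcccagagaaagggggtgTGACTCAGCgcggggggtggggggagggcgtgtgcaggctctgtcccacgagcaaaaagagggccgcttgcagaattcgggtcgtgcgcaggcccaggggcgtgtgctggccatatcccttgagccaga
Gclm (chr3:122245307-122245606, plus strand): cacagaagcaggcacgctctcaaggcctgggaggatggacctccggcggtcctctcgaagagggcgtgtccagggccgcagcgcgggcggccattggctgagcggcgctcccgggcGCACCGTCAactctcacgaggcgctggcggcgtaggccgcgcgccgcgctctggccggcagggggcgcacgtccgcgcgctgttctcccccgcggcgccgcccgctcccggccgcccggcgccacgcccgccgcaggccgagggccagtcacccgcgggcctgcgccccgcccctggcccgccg
Txnrd1 (chr10:82858956-82859255, plus strand): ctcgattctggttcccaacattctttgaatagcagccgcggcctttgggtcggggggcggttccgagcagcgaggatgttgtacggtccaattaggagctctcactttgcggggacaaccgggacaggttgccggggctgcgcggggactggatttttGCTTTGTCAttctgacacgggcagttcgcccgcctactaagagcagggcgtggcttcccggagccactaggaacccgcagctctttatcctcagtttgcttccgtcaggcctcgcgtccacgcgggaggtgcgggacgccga
Counted from the gene's start, the match began at position -56 in Sod1, -133 in Prdx1, -79 in Mt2, -134 in Gclm and -92 in Txnrd1. In Mt2, and in Prdx1 when read on the opposite strand, its letters also contain TGACTCA, a binding sequence of AP-1 factors. A match is a string of letters and not a measured binding site.

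The module varied little between libraries. In 38 of the 42 members the highest library stood at less than 1.5 times the lowest, and the median of that ratio was 1.30. The 4 members beyond it were Nqo1, Gpx3, Sod3 and Osgin1, of which Osgin1, an NRF2 target that regulates growth, was near the limit of detection at 0.240 to 0.514 CPM. The summed level of the module was 8544 to 10236 CPM in G libraries and 9228 to 10428 CPM in C libraries, and the groups overlapped. By the mean of each code, 21 members were lowest in GV and 20 were highest in CV. The same counts over all genes tested are not given here. Neither these counts nor the 38 of 42 are therefore read as particular to the module. In the heat map of all members, GV1 in particular is blue for many genes, and the 4 genes of glutathione synthesis and recycling stand higher in CH than in CV.

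**Figure D1:**
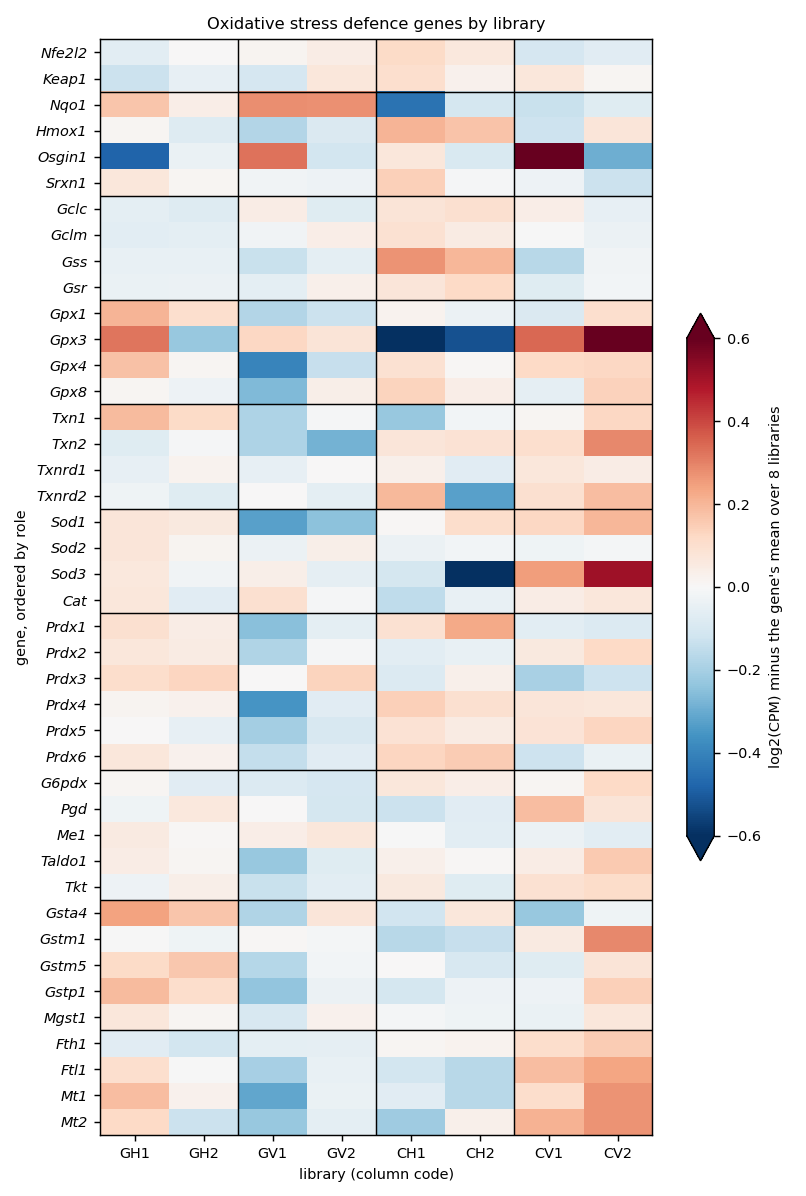
Level of each of the 42 members (rows, grouped by role) in each library (columns), as log2(CPM) minus the gene's mean over the 8 libraries. Most members stay within a narrow range; Gpx3, Sod3, Nqo1 and the barely detected Osgin1 show the strongest colours.

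In what follows, a call is one of edgeR unless another tool is named. The regulators at the head of the pathway passed the test in no comparison. Nfe2l2, the master regulator itself, had 92.1 and 96.4 CPM in GH and 97.2 and 99.3 CPM in GV libraries, against 104 and 100.5 CPM in CH and 89.8 and 91.7 CPM in CV libraries. Its log2 fold change of G against C was -0.00 ± 0.04 (SE; adjusted p = 0.973), and the CH libraries were the highest. DESeq2 called it higher in CH than in CV (adjusted p = 0.0411, against 0.0814 with edgeR) and called its H against V difference unequal in G and C (adjusted p = 0.0414, against 0.106 with edgeR). Keap1, which encodes the repressor of NRF2, had 55.0 and 58.0 CPM in GH and 56.1 and 63.1 CPM in GV libraries, against 64.4 and 61.2 CPM in CH and 63.0 and 60.6 CPM in CV libraries. The highest G library lay within the range of the C libraries, and the log2 fold change of G against C was -0.10 ± 0.05 (adjusted p = 0.202).

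Of the 4 members listed as classical NRF2 targets (Nqo1, Hmox1, Osgin1 and Srxn1), 1 passed the test between G and C libraries, and this was Nqo1. Nqo1 encodes a quinone reductase that is widely used as a readout of NRF2 activity. Its level was 15.0 and 13.8 CPM in GH and 16.3 and 16.2 CPM in GV libraries, against 9.86 and 12.4 CPM in CH and 12.2 and 12.7 CPM in CV libraries. Every G library lay above every C library. The log2 fold change of G against C was 0.37 ± 0.08 (SE; adjusted p = 0.00936, edgeR quasi-likelihood test with Benjamini-Hochberg adjustment over all genes tested), and the call held with any 1 library left out, with adjusted p-values up to 0.045. Within the second letters, the log2 fold change was 0.37 ± 0.12 for GH against CH, which missed the threshold (adjusted p = 0.17), and 0.38 ± 0.12 for GV against CV (adjusted p = 0.0331). The GV against CV call was lost without CV1, CV2, GV1 or GV2, with adjusted p-values up to 0.131. The difference between these effects was -0.01 ± 0.17 on the log2 scale (adjusted p = 0.98).

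The other classical targets missed the threshold with edgeR. Hmox1, which encodes the heme-degrading enzyme heme oxygenase 1, had 59.9 and 56.4 CPM in GH and 52.6 and 55.9 CPM in GV libraries, against 68.5 and 66.9 CPM in CH and 54.5 and 62.4 CPM in CV libraries. The G libraries overlapped only the CV libraries, and the log2 fold change of G against C was -0.16 ± 0.05 (adjusted p = 0.0538 with edgeR and 0.0468 with DESeq2). It passed with edgeR without CV1 (adjusted p = 0.0283) or GV2 (adjusted p = 0.0492). Srxn1, which encodes the sulfiredoxin that repairs over-oxidised peroxiredoxins, had 45.8 and 44.1 CPM in GH and 43.1 and 42.8 CPM in GV libraries, against 48.3 and 43.5 CPM in CH and 42.8 and 40.0 CPM in CV libraries. Its groups overlapped, and its log2 fold change of G against C was 0.01 ± 0.05 (adjusted p = 0.911). The thioredoxin reductase gene Txnrd1 had 244 and 255 CPM in GH and 244 and 252 CPM in GV libraries, against 257 and 240.4 CPM in CH and 264 and 260.2 CPM in CV libraries, also overlapping, with a log2 fold change of -0.04 ± 0.04 (adjusted p = 0.587).

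Glutathione is made by glutamate-cysteine ligase, whose catalytic and modifier subunits are encoded by Gclc and Gclm, and then by glutathione synthetase (Gss), and glutathione reductase (Gsr) recycles it. Gclc had 69.6 and 68.8 CPM in GH and 74.8 and 68.9 CPM in GV libraries, against 76.7 and 77.6 CPM in CH and 74.7 and 70.1 CPM in CV libraries. Gclm had 34.8 and 34.9 CPM in GH and 35.8 and 37.4 CPM in GV libraries, against 38.7 and 37.6 CPM in CH and 36.2 and 35.4 CPM in CV libraries. In both genes the CH libraries were at the top and the GH libraries low, and neither passed the test in any comparison. The log2 fold changes of G against C were -0.08 ± 0.05 for Gclc (adjusted p = 0.249) and -0.05 ± 0.05 for Gclm (adjusted p = 0.548). Gss had 16.5 and 16.5 CPM in GH and 15.5 and 16.3 CPM in GV libraries, against 20.5 and 19.5 CPM in CH and 15.1 and 16.7 CPM in CV libraries. Both CH libraries lay above all others, and Gss was higher in CH than in CV by 0.33 ± 0.09 on the log2 scale (adjusted p = 0.0431). That call was lost without CH1, CH2, CV1, CV2, GH1 or GH2, with adjusted p-values up to 0.201, and in a fit of those 4 libraries alone (adjusted p = 0.0583).

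Over both second letters together, 7 of the 42 members (16.7%) passed the test between G and C libraries, against 19.2% of all genes tested. The 2 higher members were Nqo1 and Prdx3 (9.03% of all genes were higher), and the 5 lower ones were Txn2, Sod1, Prdx4, Prdx5 and Fth1 (10.2% were lower). The count of 7 was 4 without CV2, 3 without GH1, 3 without GH2 and 11 without GV2. The G and C libraries did not overlap in 2 members that stood higher in G (Nqo1 and Me1; background 6.44% of genes) and in 4 that stood lower (Txn2, Prdx4, Prdx5 and Fth1; background 6.64%). The median log2 fold change was -0.06 over the members and -0.01 over all genes tested.

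The counts differed by second letter, and the test of that difference is given gene by gene further on. Between GV and CV, 14 members (33.3%) passed the test, 2 higher and 12 lower, against 25.0% of all genes in either direction, 11.6% higher and 13.4% lower. Between GH and CH, 0 members passed with edgeR, against 1.81% of all genes. Of the 42, 12 (28.6%) had an unadjusted p under 0.05 there, as had 13.6% of all genes, and DESeq2 called 1 (Txn1, adjusted p = 0.0105), which edgeR also called without GV2 (adjusted p = 0.0487). The median log2 fold change of the members was -0.16 for GV against CV and 0.01 for GH against CH. All 4 genes of iron and metal binding fell in GV, as did 3 of 6 peroxiredoxins. Of 5 genes listed under NADPH supply, 2 fell (Taldo1 and Tkt), while G6pdx, Pgd and Me1 did not pass. Of the glutathione genes, 0 of 4 for synthesis and recycling and 0 of 5 transferases passed. The count of 14 rested on single libraries: it was 9 without CV1, 4 without CV2 and 5 without GV1.

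**Figure D2:**
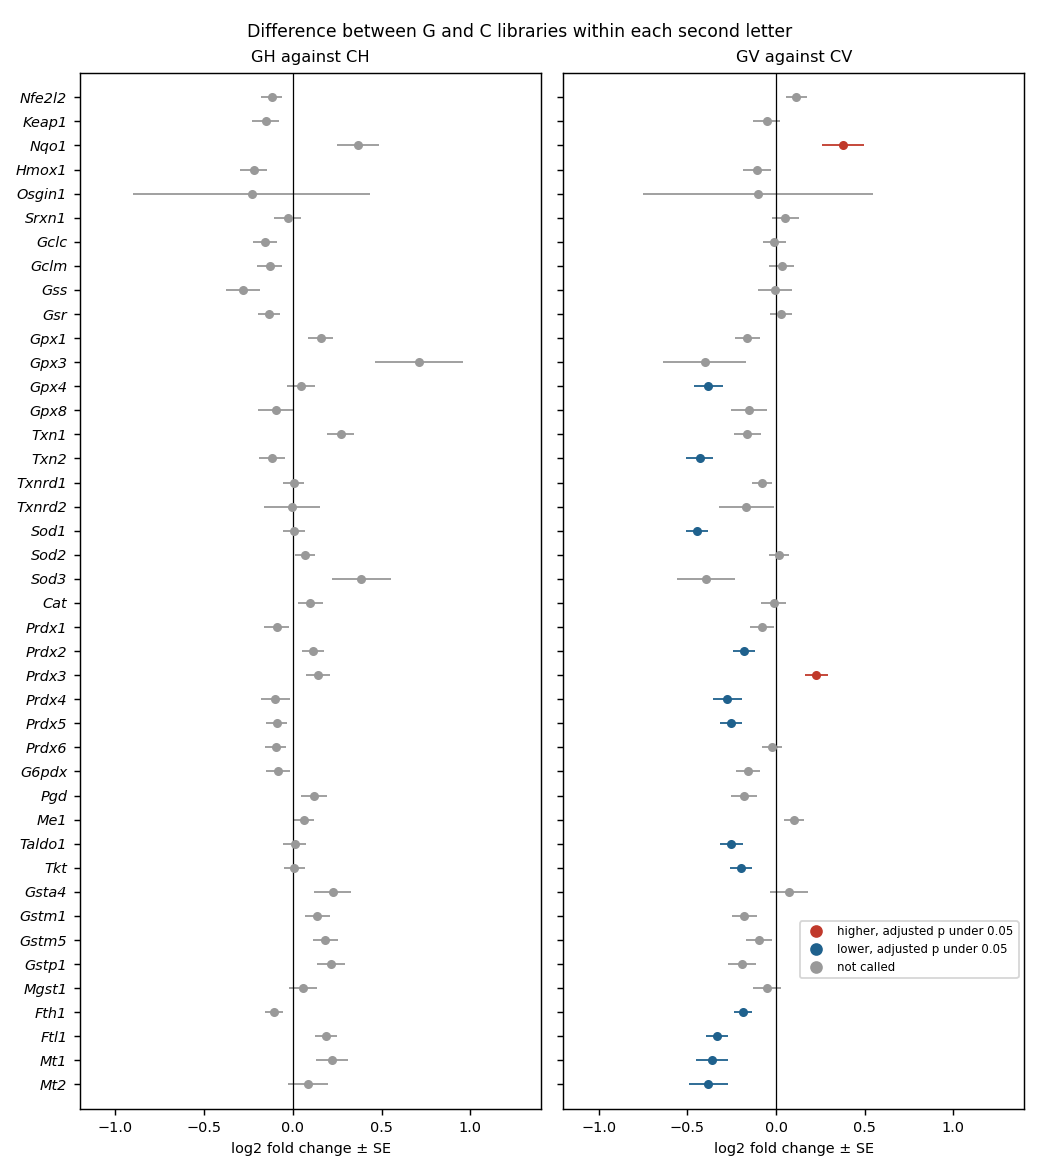
Log2 fold change with its standard error for each member, for GH against CH (left) and GV against CV (right). No member passes an adjusted p of 0.05 in the left panel, and 14 do in the right one, 12 of them below 0.

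Sod1 encodes the copper-zinc superoxide dismutase of the cytosol. Its level was 218 and 216 CPM in GH and 165 and 175 CPM in GV libraries, against 208 and 223 CPM in CH and 226 and 238 CPM in CV libraries. Both GV libraries lay far below the other 6, and the GH libraries lay among the C libraries. Sod1 fell in GV against CV with a log2 fold change of -0.45 ± 0.06 (SE; adjusted p = 0.000458), the member with the lowest adjusted p, and the call held with any 1 library left out. It was higher in GH than in GV by 0.35 ± 0.06 (adjusted p = 0.0223), a call lost without GH1, GH2 or GV1 (adjusted p up to 0.351), and also in a fit of those 4 libraries alone (adjusted p = 0.0618). Over both letters it fell in G with a log2 fold change of -0.22 ± 0.04 (adjusted p = 0.00482). The mitochondrial enzyme gene Sod2 ranged over 191 to 206 CPM and catalase (Cat) over 69.0 to 81.9 CPM, and neither passed in any comparison.

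Sod3, which encodes the secreted superoxide dismutase, was a low gene with 9.58 and 9.04 CPM in GH and 9.40 and 8.83 CPM in GV libraries, against 8.53 and 5.74 CPM in CH and 10.9 and 13.0 CPM in CV libraries. It was lower in CH than in CV with a log2 fold change of -0.75 ± 0.17 (adjusted p = 0.0163), and the call was lost without CH2 or CV2 (adjusted p up to 0.143).

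In the thioredoxin system, the mitochondrial thioredoxin gene Txn2 fell in G libraries, and the cytosolic Txn1 did not pass the test there. Txn2 had 65.1 and 68.1 CPM in GH and 60.1 and 56.1 CPM in GV libraries, against 71.9 and 72.5 CPM in CH and 73.2 and 83.4 CPM in CV libraries. Every G library lay below every C library. Its log2 fold change of G against C was -0.27 ± 0.05 (adjusted p = 0.00439), and that of GV against CV was -0.43 ± 0.07 (adjusted p = 0.00173). Both calls held with any 1 library left out. Txn1 had 2579.7 and 2448 CPM in GH and 1991 and 2249 CPM in GV libraries, against 1934 and 2235 CPM in CH and 2279 and 2465 CPM in CV libraries. Its G and C libraries overlapped, and the log2 fold change of G against C was 0.05 ± 0.05 (adjusted p = 0.536). The mitochondrial reductase gene Txnrd2 ranged over 7.09 to 10.2 CPM and passed in no comparison.

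Peroxiredoxins reduce hydrogen peroxide with electrons from thioredoxin or, for PRDX6, from glutathione. Between G and C libraries, 1 of the 6 rose, 2 fell and 3 did not pass the test. Prdx3, which encodes the mitochondrial form, had 123 and 125 CPM in GH and 114 and 125 CPM in GV libraries, against 108 and 116 CPM in CH and 99.4 and 105 CPM in CV libraries. The highest CH library lay within the range of the G libraries, and Prdx3 rose in G by 0.18 ± 0.05 on the log2 scale (adjusted p = 0.0167). This call was lost without CH1, CV1, GH1 or GH2 (adjusted p up to 0.0688). Within V, it rose in GV against CV by 0.23 ± 0.07 (adjusted p = 0.0251), which was lost without CV1, CV2 or GV2 (adjusted p up to 0.145).

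Prdx4, which encodes the form of the endoplasmic reticulum, had 83.1 and 83.6 CPM in GH and 64.2 and 78.4 CPM in GV libraries, against 90.7 and 87.9 CPM in CH and 86.3 and 86.2 CPM in CV libraries. Every G library lay below every C library, with GV1 the lowest of all. Its log2 fold change of G against C was -0.19 ± 0.06 (adjusted p = 0.0399), lost without CH1, CH2, CV1, CV2, GH1, GH2 or GV1 (adjusted p up to 0.145). For GV against CV it was -0.27 ± 0.08 (adjusted p = 0.0278), lost without CV1, CV2, GH1 or GV1 (adjusted p up to 0.3), and also in a fit of those 4 libraries alone (adjusted p = 0.0842). Prdx5, whose product is found in mitochondria, peroxisomes and cytosol, had 122 and 118 CPM in GH and 106 and 114 CPM in GV libraries, against 129.6 and 126 CPM in CH and 129 and 133 CPM in CV libraries. Again no G library reached a C library. The log2 fold change was -0.17 ± 0.04 for G against C (adjusted p = 0.0151), lost without CV2, GH1, GH2 or GV1 (adjusted p up to 0.0762). For GV against CV it was -0.25 ± 0.06 (adjusted p = 0.00956), lost without CV2 or GV1 (adjusted p up to 0.0957).

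Prdx2, a cytosolic form, had 503 and 497 CPM in GH and 424 and 477 CPM in GV libraries, against 460.1 and 465 CPM in CH and 500.3 and 521 CPM in CV libraries. Both GV libraries lay below both CV libraries, while GV2 lay above both CH libraries. Its log2 fold change of GV against CV was -0.18 ± 0.06 (adjusted p = 0.049). That call was lost without CH1, CH2, CV1, CV2, GH1, GH2 or GV1 (adjusted p up to 0.421), and also with RLE scaling (adjusted p = 0.0748), without the low-count filter (adjusted p = 0.0785) and in a fit of those 4 libraries alone (adjusted p = 0.155). Prdx1, the other main cytosolic form, had 741 and 714 CPM in GH and 583 and 665 CPM in GV libraries, against 738 and 812 CPM in CH and 664 and 654 CPM in CV libraries. Prdx6 had 221 and 214 CPM in GH and 191 and 201 CPM in GV libraries, against 231 and 235 CPM in CH and 194 and 205 CPM in CV libraries. In both genes the CH libraries lay above the CV libraries. The log2 fold change of CH against CV was 0.23 ± 0.07 for Prdx1 (adjusted p = 0.0478), lost without CH2, CV1, CV2, GH1 or GH2 (adjusted p up to 0.326). For Prdx6 it was 0.22 ± 0.06 (adjusted p = 0.0305), lost without CH1, CH2, CV1, CV2, GH1 or GH2 (adjusted p up to 0.167).

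**Figure D3:**
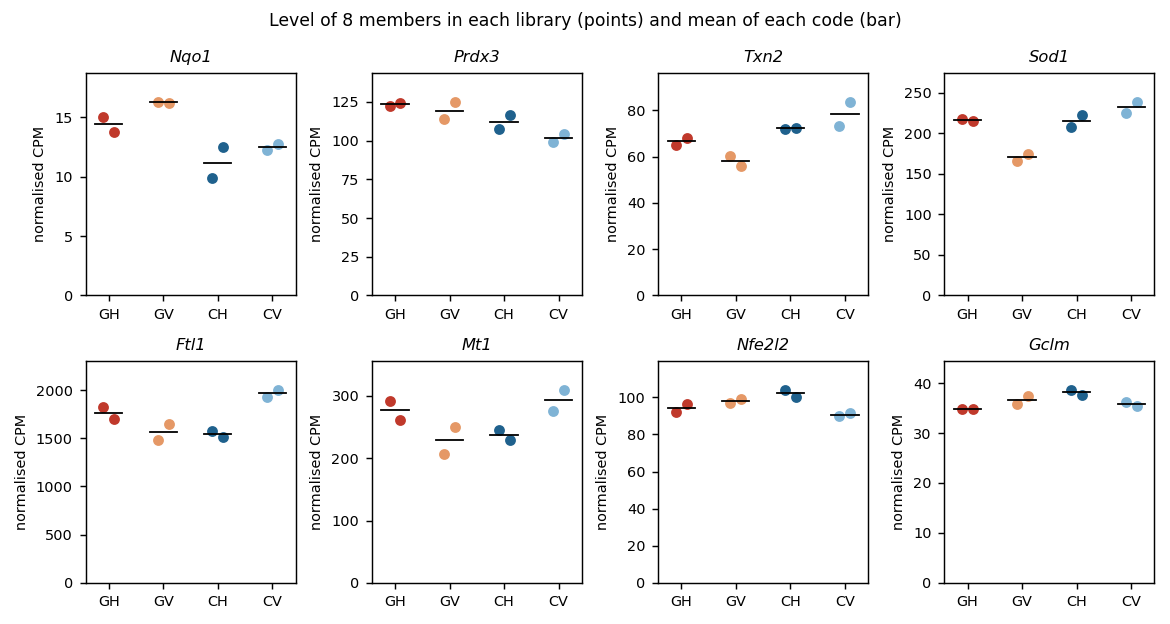
Level in CPM (vertical axes, starting at 0) of 8 members in each library (points) with the mean of the 2 libraries of each code (bars). Nqo1 stands higher and Txn2 lower in all G libraries than in all C libraries, Sod1 is low in GV only, Ftl1 and Mt1 show opposite steps between H and V in G and in C, and Nfe2l2 and Gclm are nearly level.

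Among the glutathione peroxidases, Gpx4, whose enzyme reduces lipid hydroperoxides and guards against ferroptosis, had 317 and 284 CPM in GH and 214 and 256 CPM in GV libraries, against 299.6 and 283 CPM in CH and 306 and 307 CPM in CV libraries. GV1 and GV2 were the lowest libraries. It fell in GV against CV with a log2 fold change of -0.38 ± 0.08 (adjusted p = 0.00521), and the call held with any 1 library left out. A row of the table named Gpx4-ps2, a pseudogene, held 36.0 to 49.8 CPM, so reads of Gpx4 may have been split between them. Gpx3, the secreted form and a low gene, had 3.19 and 2.18 CPM in GH and 2.78 and 2.69 CPM in GV libraries, against 1.50 and 1.77 CPM in CH and 3.24 and 3.99 CPM in CV libraries. Both CH libraries lay under all others, and Gpx3 was lower in CH than in CV with a log2 fold change of -1.14 ± 0.24 (adjusted p = 0.0139). The call was lost without CH1, CH2 or CV2 (adjusted p up to 0.114). Gpx1 ranged over 107 to 139 CPM and Gpx8 over 30.5 to 40.3 CPM, and neither passed in any comparison of the main analysis. Gpx1 was called higher in GH than in GV by DESeq2 (adjusted p = 0.00438) and by edgeR without the low-count filter (adjusted p = 0.0222). In the main analysis that adjusted p was 0.0562. DESeq2 also called its H against V difference unequal in G and C (adjusted p = 0.0357, against 0.0716 with edgeR).

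Taldo1 and Tkt encode the transaldolase and transketolase of the pentose phosphate pathway, which supplies NADPH. Taldo1 had 148 and 164 CPM in GV libraries, against 178 and 193 CPM in CV libraries, and its log2 fold change of -0.25 ± 0.07 passed the test (adjusted p = 0.0151) but was lost without CV2 or GV1 (adjusted p up to 0.155), and also in a fit of those 4 libraries alone (adjusted p = 0.0594). Its GH libraries, at 178 and 174 CPM, lay beside the CH libraries, at 177 and 174 CPM. Tkt had 377 and 396 CPM in GV libraries, against 441 and 445 CPM in CV libraries, and its log2 fold change was -0.20 ± 0.06 (adjusted p = 0.03), lost without CV1, CV2, GH1, GH2 or GV1 (adjusted p up to 0.178), and also in a fit of those 4 libraries alone (adjusted p = 0.074). In H, Tkt stood at 404 and 424 CPM in GH and at 429.9 and 393 CPM in CH, which overlapped. G6pdx and Pgd, the dehydrogenases that make NADPH in that pathway, and the malic enzyme gene Me1 passed in no comparison.

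Glutathione transferases couple glutathione to electrophiles. Gstm1 had 155 and 152 CPM in GH and 156 and 154 CPM in GV libraries, against 138 and 141 CPM in CH and 161 and 189.7 CPM in CV libraries. The CH libraries were the lowest, and Gstm1 was lower in CH than in CV with a log2 fold change of -0.33 ± 0.07 (adjusted p = 0.0154), lost without CH1, CH2 or CV2 (adjusted p up to 0.156). Gstp1 had 242 and 229 CPM in GH and 181 and 207 CPM in GV libraries, against 198 and 208 CPM in CH and 208 and 235 CPM in CV libraries. In the main analysis it passed only in the test of whether the H against V difference was unequal in G and C. Gstp1 was also called higher in GH than in GV by DESeq2 (adjusted p = 0.0133) and by edgeR without the low-count filter (adjusted p = 0.0398). Rows named Gstp2 and Gstp-ps held 28.3 to 37.7 CPM and 69.3 to 96.2 CPM, so reads of Gstp1 may have been split among them. Gsta4, Gstm5 and Mgst1 passed in no comparison.

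The 4 genes of iron and metal binding all fell in GV against CV. Ftl1, the ferritin light chain, had 1819.6 and 1696 CPM in GH and 1480.5 and 1649 CPM in GV libraries, against 1577 and 1513 CPM in CH and 1932 and 2005 CPM in CV libraries. Both CV libraries lay above all others. The log2 fold change of GV against CV was -0.33 ± 0.06 (adjusted p = 0.00228), which held with any 1 library left out. Ftl1 was also lower in CH than in CV, with a log2 fold change of -0.35 ± 0.06 (adjusted p = 0.00513), lost without CH2 or CV2 (adjusted p up to 0.0643). Rows named Ftl1-ps1 and Ftl2-ps held 47.5 to 66.8 CPM and 34.8 to 48.6 CPM, so its reads too may have been split.

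Fth1, the ferritin heavy chain, had 511 and 496 CPM in GH and 514 and 515 CPM in GV libraries, against 539 and 544 CPM in CH and 576 and 594 CPM in CV libraries. No G library reached a C library, and the log2 fold change of G against C was -0.14 ± 0.04 (adjusted p = 0.0158), lost without CV2, GH1 or GH2 (adjusted p up to 0.087). For GV against CV it was -0.18 ± 0.05 (adjusted p = 0.0197), lost without CV1, CV2, GH1 or GV1 (adjusted p up to 0.138), and also in a fit of those 4 libraries alone (adjusted p = 0.0905). Metallothioneins bind zinc and copper and scavenge radicals. Mt1 had 292 and 262 CPM in GH and 207 and 250.3 CPM in GV libraries, against 245 and 229.5 CPM in CH and 276 and 310.4 CPM in CV libraries. Mt2 had 23.4 and 19.7 CPM in GH and 18.5 and 20.7 CPM in GV libraries, against 18.6 and 22.1 CPM in CH and 25.0 and 26.0 CPM in CV libraries. In both genes the CV libraries lay above the GV libraries. Mt1 fell in GV against CV with a log2 fold change of -0.36 ± 0.09 (adjusted p = 0.0123), lost without CV2 or GV1 (adjusted p up to 0.132). Mt2 fell with a log2 fold change of -0.38 ± 0.11 (adjusted p = 0.0245), lost without CV1, CV2 or GV1 (adjusted p up to 0.194). Mt1 was also lower in CH than in CV, with a log2 fold change of -0.31 ± 0.09 (adjusted p = 0.0493), lost without CH1, CH2, CV1, CV2, GH1 or GH2 (adjusted p up to 0.311), and also with RLE scaling (adjusted p = 0.0528).

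Between the second letters, 8 members (19.0%) passed the test for CH against CV, against 10.7% of all genes. Gss, Prdx1 and Prdx6 were higher in CH (5.68% of all genes were), and Gpx3, Sod3, Gstm1, Ftl1 and Mt1 were lower (4.99%). The count of 8 was 3 without CH1, 0 without CH2, 4 without CV1, 0 without CV2, 4 without GH1 and 4 without GH2. For GH against GV, 1 member passed (Sod1, higher in GH; 2.38%, against 1.28% of all genes in either direction and 1.14% higher), and 15 (35.7%) had an unadjusted p under 0.05, as had 14.8% of all genes. DESeq2 called 7 members there, and edgeR called 9 without GV2 and 0 without GH1, GH2 or GV1.

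The H against V difference was itself unequal in G and C libraries for 6 members (14.3%, against 7.35% of all genes), all 6 with a positive value and 0 with a negative one, against 3.93% and 3.41% of all genes. A positive value means that H stood higher relative to V in G than in C, which is the same as G standing higher relative to C in H than in V. For Mt1 the difference was 0.58 ± 0.13 on the log2 scale (adjusted p = 0.0233), lost without CH2, CV2, GH1, GH2 or GV1 (adjusted p up to 0.113). Ftl1 had a difference of 0.52 ± 0.09 (adjusted p = 0.00979), lost without CV2 or GH1 (adjusted p up to 0.0713). In Sod1 it was 0.45 ± 0.09 (adjusted p = 0.014), lost without CV2, GH1 or GH2 (adjusted p up to 0.0842). In Txn1 the log2 difference reached 0.43 ± 0.11 (adjusted p = 0.033), lost without CH1, CV1, CV2, GH1, GH2 or GV1 (adjusted p up to 0.155). Gpx4 had one of 0.43 ± 0.12 (adjusted p = 0.0439), lost without CH1, CH2, CV1, CV2, GH1, GH2 or GV1 (adjusted p up to 0.202), and also with RLE scaling (adjusted p = 0.0505). For Gstp1 it was 0.41 ± 0.11 (adjusted p = 0.0452), lost without CH1, CH2, CV2, GH1, GH2 or GV1 (adjusted p up to 0.191), and also with RLE scaling (adjusted p = 0.0523). The count of 6 was 3 without CH2, 0 without CV2, 0 without GH1, 1 without GH2 and 2 without GV1.

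Transcript length moved with a part of these results. Over all genes, its Spearman correlation with the log2 fold change was 0.19 for GV against CV and -0.32 for GH against GV. For GH against CH it was -0.01, and for CH against CV 0.01. The median length of a gene's coding transcripts in GENCODE M21 was 1195 bases for the members and 2257 bases for the 13390 tested genes that had one. For GV against CV, genes under 1000 bases had a median log2 fold change of -0.15 and genes over 4000 bases one of 0.04. For G against C these medians were -0.07 and 0.03, and for GH against GV 0.10 and -0.07. They were 0.0026 and -0.0015 for GH against CH, and -0.03 and -0.01 for CH against CV. All 5 members that fell in G against C (Txn2, Sod1, Prdx4, Prdx5 and Fth1) were among the 18 under 1000 bases, and 0 were among the 24 longer ones. Of the 18 short members, 9 fell in GV against CV, with a median log2 fold change of -0.22. Of the 24 longer members, 3 fell, with a median of -0.04. Over all genes with a length, those that fell in GV against CV had a median of 1583 bases. Those that fell in G against C had one of 1768.5 bases. The share of all short genes that fell is not given here, so the members are not set apart from other short genes. Of the 6 members with an unequal H against V difference, all but Txn1 (1051 bases) were under 1000 bases. Over all genes, the median of that difference was 0.15 under 1000 bases and -0.06 over 4000 bases. Genes called with a positive value had a median length of 977 bases. Nqo1 (1553 bases) and Prdx3 (1478 bases), which rose in GV, were longer. The part of length in the members' differences was not tested.

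**Figure D4:**
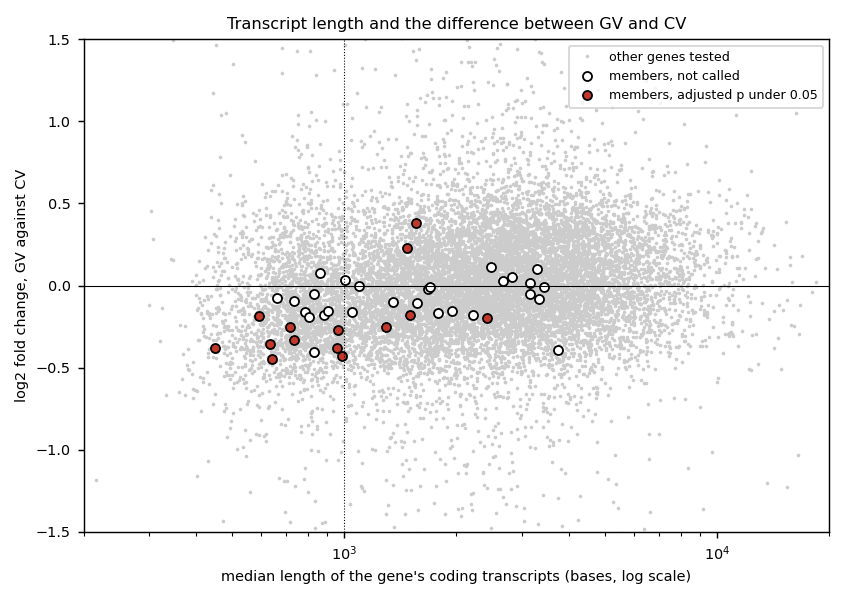
Median coding transcript length of each gene (horizontal axis, log scale, bases) against its log2 fold change of GV against CV (vertical axis), with the members as large circles; genes beyond the axis limits are not drawn. Of the members left of the dotted line at 1000 bases, 9 of 18 fell, and of those right of it 3 of 24 did. Over all genes with a length, those that fell had a median of 1583 bases, against 2257 bases for all of them.

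A wider list of 76 other genes of the pathway was examined beside the members, and 67 of them passed the filter on low counts. Between G and C libraries, 4 rose and 8 fell (17.9%, near the 19.2% of all genes), and between GV and CV, 8 rose and 10 fell (26.9%, near the 25.0% of all genes). Txnip, which encodes an inhibitor of thioredoxin, had 13.9 and 11.3 CPM in GH and 14.8 and 14.4 CPM in GV libraries, against 8.86 and 8.64 CPM in CH and 12.1 and 9.55 CPM in CV libraries. Every G library but GH2 lay above every C library, and the log2 fold change of G against C was 0.48 (adjusted p = 0.00495; kept with any 1 library left out). Nxn, the gene of the thioredoxin-like nucleoredoxin, had a log2 fold change of -0.37 (adjusted p = 0.0056; kept with any 1 library left out), with every G library below every C library. The log2 fold change was -0.33 (adjusted p = 0.0103; lost without GH2, adjusted p up to 0.0512) for Abcc1, which encodes an exporter of glutathione conjugates. For Mt3, the brain metallothionein gene, it was -0.31 (adjusted p = 0.000955; kept with any 1 library left out). For Ggt7 it was -0.29 (adjusted p = 0.0166; lost without CH1, CV2, GH2 or GV1, adjusted p up to 0.0699), and for the methionine sulfoxide reductase gene Msrb1 it was -0.28 (adjusted p = 0.0202; lost without CH1, CV1, CV2, GH1 or GH2, adjusted p up to 0.0842).

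Within V, Mt3 had 79.0 and 76.5 CPM in GV libraries, against 110.0 and 118 CPM in CV libraries, with a log2 fold change of -0.55 (adjusted p = 0.000208; kept with any 1 library left out), beside the falls of Mt1 and Mt2. Glrx5, a mitochondrial glutaredoxin gene, had one of -0.42 (adjusted p = 0.00132; kept with any 1 library left out). The log2 fold change of GV against CV was -0.44 (adjusted p = 0.00949; lost without CV2 or GV1, adjusted p up to 0.0623) for Ggt7, -0.40 (adjusted p = 0.0157; lost without CV1, CV2, GV1 or GV2, adjusted p up to 0.0696) for Msrb1 and 0.44 (adjusted p = 0.0303; lost without CV2, GV1 or GV2, adjusted p up to 0.245) for Txnip. Ncoa7, a gene of the oxidation resistance family, rose by 0.41 (adjusted p = 0.0252; lost without CV1, CV2 or GV2, adjusted p up to 0.123). Between GH and CH, 1 of the 67 rose and 2 fell (4.48%, against 1.81% of all genes). The microsomal glutathione transferase gene Mgst3 had a log2 fold change of 0.42 (adjusted p = 0.0308; lost without CH1, CH2, GH1 or GH2, adjusted p up to 0.295). Abcc1 had one of -0.47 (adjusted p = 0.0441; lost without CH1, CV1, CV2, GH1 or GH2, adjusted p up to 0.333; also lost in a fit of those 4 libraries alone with adjusted p = 0.065), and the aldehyde oxidase gene Aox1 one of -0.41 (adjusted p = 0.0369; lost without CH1, CH2, GH1 or GH2, adjusted p up to 0.254). Between GH and GV, 2 of the 67 were higher (2.99%, against 1.28% of all genes called), Glrx5 by 0.33 (adjusted p = 0.0436; lost without CV1, CV2, GH1, GH2 or GV1, adjusted p up to 0.394; also lost with RLE scaling with adjusted p = 0.058 and in a fit of those 4 libraries alone with adjusted p = 0.0709) and Mt3 by 0.32 (adjusted p = 0.0325; lost without CV1, CV2, GH1, GH2 or GV1, adjusted p up to 0.314; also lost in a fit of those 4 libraries alone with adjusted p = 0.0734) on the log2 scale.

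Between CH and CV, 5 of the wider genes were higher and 2 lower (10.4%, near the 10.7% of all genes). Slc7a11, which encodes the cystine importer that feeds glutathione synthesis, had 51.9 and 48.0 CPM in GH and 51.4 and 53.4 CPM in GV libraries, against 54.3 and 56.7 CPM in CH and 41.7 and 42.8 CPM in CV libraries. The CV libraries lay under all others. Its log2 fold change of CH against CV was 0.39 (adjusted p = 0.00633; lost without CH2 or CV2, adjusted p up to 0.0616). For Aox1 it was 0.48 (adjusted p = 0.007; lost without CH2 or CV1, adjusted p up to 0.0571), for Abcc1 0.38 (adjusted p = 0.0388; lost without CH1, CV1, CV2 or GH2, adjusted p up to 0.215) and for Sesn1, a sestrin gene, 0.31 (adjusted p = 0.0301; lost without CH2, CV2, GH1 or GH2, adjusted p up to 0.219). It was -0.31 (adjusted p = 0.0381; lost without CH2, CV1, CV2, GH1 or GH2, adjusted p up to 0.255) for Mgst3 and -0.46 (adjusted p = 0.0491; lost without CH1, CH2, CV1, CV2, GH1 or GH2, adjusted p up to 0.291; also lost with RLE scaling with adjusted p = 0.0522) for Bach2, a gene of the BACH family of repressors.

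The H against V difference was unequal in G and C for 6 of the 67 (8.96%, near the 7.35% of all genes), 4 with a positive value and 2 with a negative one. It was 0.50 (adjusted p = 0.0184; lost without CV2, GH1 or GH2, adjusted p up to 0.101) for Park7, which encodes the redox-sensitive protein DJ-1. For Mgst3 it was 0.49 (adjusted p = 0.0341; lost without CH2, CV1, CV2, GH1, GH2, GV1 or GV2, adjusted p up to 0.149), for Mt3 0.48 (adjusted p = 0.0134; lost without CV2, GH1 or GH2, adjusted p up to 0.0749) and for Glrx5 0.48 (adjusted p = 0.0185; lost without CH2, CV2, GH1 or GH2, adjusted p up to 0.0941). The negative values were -0.58 (adjusted p = 0.0224; lost without CH2, CV1, CV2, GH1, GH2 or GV1, adjusted p up to 0.086) for Aox1 and -0.46 (adjusted p = 0.0225; lost without CH2, CV1, CV2, GH1 or GH2, adjusted p up to 0.106) for Slc7a11.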

How the data were processed

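Per the labels' protocols, total RNA of 8 samples was depleted of ribosomal RNA and made into stranded libraries. According to the submitters' processing notes, the tools were HISAT2 2.1.0, StringTie 2.1.3b, bcl2fastq 2.20.0 and Trimmomatic, and the build was GRCm38 (mm10). The deposited table holds raw read counts per gene, per the file headers; how reads were counted, strand included, is not given in the sources used here. Its 16 FPKM and TPM columns were not used. Gene counts were fitted with edgeR 4.0.16 in R 4.3.3 (TMM scaling, filterByExpr with a minimum count of 10, 4 code means, all 8 libraries, quasi-likelihood F test, Benjamini-Hochberg adjustment over 17644 genes, threshold 0.05), which was tested on simulated data. Standard errors were taken as the absolute log2 fold change over the square root of F. CPM were computed from TMM-scaled totals. Alternatives were DESeq2 1.42.0, RLE scaling, no filter, a block for the number in the code, fits on 4 libraries and leaving out each library. Values are given in every library for members called in any comparison and for 8 members fixed by name; up to 6 genes a comparison of the wider list are named by size. The members and lists were chosen with earlier results of these data known. Libraries of 1 code differed by more than sampling noise.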

Additional observations from a re-analysis of the deposited data

Results flagged for a closer look

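The members Gpx4, Txn1, Sod1, Gstp1, Ftl1 and Mt1 were singled out because their H against V difference was unequal in G and C libraries, by the test of that difference itself. On the log2 scale the differences were 0.43 for Gpx4, 0.43 for Txn1, 0.45 for Sod1, 0.41 for Gstp1, 0.52 for Ftl1 and 0.58 for Mt1. Among 84 groups of 4 libraries examined for a library far from the others, 2 held one, where chance gives about 1 in 20. Gclc stood at 74.8 CPM in GV1, against 68.8 to 69.6 CPM in the other G libraries. Txn2 stood at 83.4 CPM in CV2, against 71.9 to 73.2 CPM in the other C libraries.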

How the results depend on the processing

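Of 36 calls on members, 7 held under every alternative run: Nqo1, Txn2 and Sod1 for G against C, and Gpx4, Txn2, Sod1 and Ftl1 for GV against CV. Of 29 calls named from the wider list, 5 held under every alternative. No called value changed sign. With any 1 library left out, the number of members called ranged from 3 to 11 for G against C, 0 to 1 for GH against CH, 4 to 15 for GV against CV, 0 to 8 for CH against CV, 0 to 9 for GH against GV and 0 to 9 for the unequal H against V difference. With the replicate block, it was 5 for CH against CV; no other number of members moved by over 1.5 times under it. Of the calls named, the block ended 10, with adjusted p-values of 0.0536 to 0.0707: Gss, Prdx1, Mt1 and Bach2 for CH against CV, Prdx2 for GV against CV, Abcc1 and Aox1 for GH against CH, Glrx5 and Mt3 for GH against GV, and the unequal difference of Gpx4. Libraries of the same number showed no shared shift over genes (correlations of number 2 minus number 1 between codes from -0.0436 to 0.0355). This does not show whether they share a culture or animal. Without the low-count filter, 1 member was called for GH against CH and 5 for GH against GV. DESeq2 called 1 for GH against CH, 7 for GH against GV and 11 for the unequal difference. With fits on 4 libraries, 9 were called for GV against CV and 0 for GH against GV, with fewer libraries to estimate the spread. The cause of the other shifts was not tested. Over all genes, 320 were called for GH against CH in the main analysis, 203 with the replicate block, 552 without the filter and 567 with DESeq2. For GH against GV, 226 were called, against 137 with the replicate block, 575 without the filter, 668 with DESeq2, 31 with 4 libraries and 4 to 855 with 1 library left out. For the unequal difference, 1296 were called, against 2022 with DESeq2 and 66 to 1510 with 1 library left out. Leaving out 1 library gave 1676 to 3467 genes for G against C (3387 with all), 48 to 415 for GH against CH, 2043 to 4517 for GV against CV (4408 with all) and 294 to 2241 for CH against CV (1883 with all). The median log2 fold change of all genes stayed within 0.0322 of 0 in every setting. Depth did not limit most members; Osgin1 had 10 to 20 reads a library.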
